A study of Homo sapiens with 27 samples.

Results

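Nucleoporins and nuclear transport receptors were followed as a set of 46 genes, chosen by their gene symbols: the subunits of the nuclear pore, the proteins of the Ran cycle, the importins and exportins, and the mRNA export receptor NXF1 with its partner NXT1. All transcripts of these genes were taken, which gave 426 of the 93530 transcripts and 46 of the 18701 genes listed. The libraries came from RM82, an established Ewing sarcoma cell line, exposed for a day either to SGC-CLK-1, a chemical inhibitor of the CLK kinases that phosphorylate splicing factors, or to the solvent DMSO as the control. Each treatment had 3 cDNA libraries with unique molecular identifiers (UMIs) to remove PCR copies. They were taken as Oxford Nanopore libraries of full-length cDNA, because the files count transcripts, as the Nanopore pipeline of the methods does. The labels name an Illumina kit, and RM82 cells were read on both platforms, but the sample titles share a suffix that may stand for the site of the Nanopore runs of these cells. Only these 6 of the 27 samples in the series were used, and the 2 groups shared the cell line and its culture medium. The study describes its experiments in general as independently repeated, but neither it nor the labels say which cultures these libraries came from, so that p-values measure the spread between these libraries, which may be technical. The group labels are in doubt. FRG2 (ENST00000645766), a gene outside the set, had 64, 44 and 60 counts under the SGC-CLK-1 label against 96, 88 and 95 under the DMSO label, lower under the former, whereas the study draws this transcript the other way round. Libraries are therefore named by their labels throughout, and if the labels were exchanged every direction below would turn. Whether they were was not tested.

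The nuclear pore is a ring-shaped assembly in the nuclear envelope, built from outer and inner scaffold rings, a channel lined by flexible repeat proteins, filaments on the cytoplasmic face and a basket on the nuclear face. Importins and exportins carry cargo through the channel, and the small GTPase Ran, charged with GTP inside the nucleus and discharged outside it, sets the direction of travel. NUTF2 (also called NTF2) brings Ran back into the nucleus.

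The SGC-CLK-1-labelled libraries held 666702, 362826 and 373004 counts, in the order of their replicate numbers, which is kept below, and the DMSO-labelled libraries 416352, 523456 and 372876. The 46 genes received 21283 counts over the 6 libraries. Ewing sarcoma markers were seen for 7 of 9 genes, with CCND1 the most counted of them. They summed to between 1322 and 1700 counts per 1000000 counts of the library (CPM), most of it on CCND1, BCL11B and EWSR1. NR0B1 had between 1 and 6 counts in a library, and NKX2-2 and FLI1 had no counts in any library. Of 7 plasma cell markers, 2 had counts, and they summed to between 2.76 and 10.7 CPM. Mitochondrial genes took 0.723%, 0.534% and 0.517% of counts in the SGC-CLK-1-labelled libraries and 0.883%, 0.757% and 0.858% in the DMSO-labelled libraries, 2 ranges that did not overlap. The mean annotated length of the counted transcripts was 3777, 3921 and 3907 bases against 3678, 3840 and 3639 bases. The part of these features in the results was not tested.

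Introns of 2 genes, NUTF2 and NUP98, hold transcripts that were called below, as annotated in GENCODE release 44 (GRCh38), and the sequence across the intron edge is shown for NUTF2. NUTF2-208 (ENST00000587481, chr16:67869960-67872567, plus strand) is a retained-intron transcript of a single exon. It starts inside the last NUTF2 intron, keeps its final 840 bases and runs on through the last exon. NUP98-212 (ENST00000488828, chromosome 11, minus strand) is also annotated as a retained-intron transcript. Its first exon of 576 bases lies wholly inside an intron of 3475 bases of the coding transcript NUP98-201 and is spliced to the coding exon that follows it. In the line below, the last 30 intronic bases of NUTF2 are in lower case and the first 30 bases of the following coding exon are in capitals.
NUTF2-208: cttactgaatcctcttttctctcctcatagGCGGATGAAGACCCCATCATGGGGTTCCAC

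In NUTF2-208 the intron is read through into the exon without a splice, so that a pyrimidine-rich stretch and the terminal ag of the intron stand before the exon. Of the stretches of 31 bases in NUP98-212, 10.7% were also found, on either strand, in transcripts of other genes, 2852 genes in all, whereas NUP98-201 shared none. The intronic exon is therefore partly repetitive, and reads of other genes counted there were not tested for.

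NUTF2 was the one gene of the set called when transcripts were summed to genes. Its level was 280, 295 and 386 CPM in the SGC-CLK-1-labelled libraries and 773, 604 and 695 CPM in the DMSO-labelled libraries. All 3 SGC-CLK-1-labelled libraries lay below all 3 DMSO-labelled libraries, and the highest of them was at 386 CPM where the lowest DMSO-labelled library was at 604 CPM. The means were 320 ± 57.2 and 691 ± 84.9 CPM (SD, n = 3), and the fit, after scaling between libraries, gave a fold of 0.440 and a log2 change of -1.18 ± 0.20 (SE, edgeR quasi-likelihood test, Benjamini-Hochberg adjusted p = 0.0350). This change had the 6th smallest p among 6344 genes tested, of which 0.315% were called. In such bulk libraries fewer RNA molecules per cell and fewer cells of a type that expresses the gene cannot be told apart. The gene call depended on single libraries: the edgeR adjusted p was 0.0958, 0.242 and 0.0585 without SGC-CLK-1 replicate 1, 2 or 3, and 0.114 and 0.0719 without DMSO replicate 1 or 3. Without DMSO replicate 2 it was 0.0353, and the log2 change lay between -1.35 and -1.11 throughout.

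Of the 7 NUTF2 transcripts listed, 4 passed the filter on low counts, and they fell into 2 pairs. NUTF2-201 (ENST00000219169, chr16:67846933-67872567), the coding transcript of 5 exons, had counts of 77, 40 and 48 in the SGC-CLK-1-labelled libraries and 142, 149 and 113 in the DMSO-labelled libraries. NUTF2-208, the retained-intron transcript, had 74, 40 and 45 counts against 134, 143 and 108. Neither overlapped between the groups. The log2 changes were -1.38 ± 0.21 (SE, edgeR adjusted p = 0.000224) for NUTF2-201 and -1.36 ± 0.21 (edgeR adjusted p = 0.000268) for NUTF2-208, and both stayed below 0.05 under all 12 alternatives run on transcripts. These 2 values may not be independent. The last exon, 1768 bases long, makes up 83.4% of NUTF2-201 and 67.8% of NUTF2-208, and the authors kept secondary alignments, so that 1 molecule could be counted on both, which was not tested.

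The other pair did not follow. NUTF2-205 (ENST00000568396) and NUTF2-206 (ENST00000569436) encode the same length of protein but start 278 and 181 bases downstream of NUTF2-201, in longer first exons. They too share much of the last exon, which makes up 44.4% of NUTF2-205 and 73.2% of NUTF2-206. NUTF2-205 had counts of 17, 12 and 25 against 24, 12 and 19, and NUTF2-206 had 19, 13 and 24 against 21, 12 and 19. The groups overlapped in both, and the counts of the 2 transcripts matched within 3 in each library. Their log2 changes were -0.09 ± 0.37 and 0.04 ± 0.36 (SE), with edgeR adjusted p = 0.933 and 0.973. Relative to the gene as a whole they were higher by 1.03 and 1.15 on the log2 scale. The edgeR usage test of NUTF2 did not pass adjustment over 1804 genes (edgeR adjusted p = 1.00). A difference between the pairs was therefore not called. The plot of NUTF2 transcripts shows the gap in the first pair and the overlap in the second. The first exons of NUTF2 lie within the span of CENPT, a gene on the other strand with between 4 and 22 counts a library. For NUTF2-205, 27.0% of the stretches of 31 bases also occurred in other genes, and for NUTF2-201 8.23%.

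**Figure D1:**
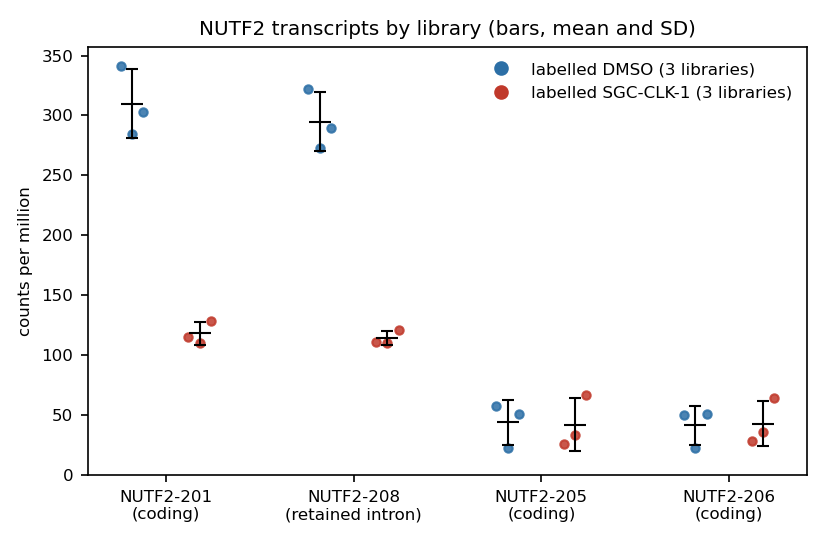
CPM of the 4 NUTF2 transcripts that passed the filter, by library, with the mean and SD of each group of 3 libraries. NUTF2-201 and NUTF2-208 sit between 110 and 129 CPM in the SGC-CLK-1-labelled libraries and between 273 and 341 CPM in the DMSO-labelled libraries, while NUTF2-205 and NUTF2-206 overlap between the groups.

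The 250 bases before the start of NUTF2-201 are shown because NUTF2-201, which was lower, starts directly after them, and NUTF2-205 and NUTF2-206 start further downstream. The sequence is that of RefSeq on GRCh38.p14 (chr16:67846683-67846932, plus strand), with the GC box motif GGGCGG in capitals.
NUTF2 promoter: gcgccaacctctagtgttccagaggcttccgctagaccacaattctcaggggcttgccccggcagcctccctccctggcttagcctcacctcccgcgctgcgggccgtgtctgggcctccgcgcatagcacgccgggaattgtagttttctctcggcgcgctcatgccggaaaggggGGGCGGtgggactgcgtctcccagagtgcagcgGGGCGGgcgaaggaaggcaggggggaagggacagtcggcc

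GGGCGG was found on either strand in 42.6% of the 35116 RefSeq windows of this length, and in 31 of the 54 windows (57.4%) of the 42 member genes that had one. KPNA4, KPNB1, NUP43 and RANBP1 had no entry. Of the other motifs searched on both strands, none of which contains another, CCGGAAG (an ETS factor motif) stood in 29.6% of the member windows and 8.52% of all windows, CCAAT in 37.0% and 32.0%, CACGTG in 13.0% and 6.34%, and TATAAA in 5.56% and 10.7%. The NUTF2 window held none of these 4. Windows of 1 gene can overlap, member windows were richer in G and C (median 63.6% against 58.0%), and a match describes letters, not binding.

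The other proteins of the Ran cycle did not move as one. RAN, the GTPase itself, was at 771, 763 and 885 CPM in the SGC-CLK-1-labelled libraries and 1078, 913 and 1435 CPM in the DMSO-labelled libraries, lower in all 3 with no overlap. Its log2 change of -0.58 ± 0.21 (SE) did not pass the test (edgeR adjusted p = 0.209). All 4 of its tested transcripts had changes between -0.50 and -0.48, which are not independent, since a molecule could be counted on several of them. As libraries were left out, the changes of these transcripts lay between -0.655 and -0.243. RAN is also uncertain, since between 15.8% and 26.9% of the stretches of 31 bases in these transcripts occurred in other genes, most of them in the pseudogene RANP1. RCC1, the exchange factor that charges Ran with GTP on chromatin, was at 121, 146 and 139 CPM against 79.3, 65.0 and 42.9 CPM, higher with no overlap. The log2 change was 1.03 ± 0.28 (SE), with an edgeR adjusted p of 0.118. RANBP1, which helps RANGAP1 discharge Ran in the cytoplasm, and RANGAP1 itself had log2 changes of 1.02 and -0.66, neither called and both with overlapping groups. The 5 genes together summed to 1379 ± 162 against 2014 ± 281 CPM (SD, n = 3, exact two-sided permutation p = 0.1, the smallest that 3 libraries against 3 can give). After Benjamini-Hochberg adjustment over the roles this permutation p was 0.183. The sum includes NUTF2, the one gene called, whose means were 320 and 691 CPM, and the Ran cycle without NUTF2 was not tested.

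Among the importin beta family, the receptors that bind cargo and the pore, all 6 genes had log2 changes above 0. IPO5, an importin of ribosomal proteins and histones, was at 246, 237 and 290 CPM in the SGC-CLK-1-labelled libraries and 122, 145 and 80.5 CPM in the DMSO-labelled libraries. The groups stood well apart, with a fitted fold of 2.09 and a log2 change of 1.06 ± 0.25 (SE), but the sum over transcripts did not pass the test (edgeR adjusted p = 0.0703). It did pass under DESeq2 (adjusted p = 0.0197) and under 2 other filters on low counts. Its coding transcripts IPO5-201 (ENST00000261574, chr13:97953675-98024295) and IPO5-202 (ENST00000357602, chr13:97960249-98022489) were called higher. IPO5-201 had counts of 30, 23 and 22 against 9, 13 and 7, a log2 change of 1.30 ± 0.34 (SE, edgeR adjusted p = 0.0254). IPO5-202 had 27, 13 and 19 counts against 8, 11 and 3, a log2 change of 1.34 ± 0.39 (SE, edgeR adjusted p = 0.0441). Both transcripts passed the filter on low counts only through the SGC-CLK-1-labelled libraries, in which they were higher. The calls are therefore not independent of that filter. Their relative usage within IPO5 changed by 0.10 and 0.13 on the log2 scale, and since both are transcripts of 1 gene, a molecule could be counted on each and the 2 calls are not independent. The call of IPO5-201 was lost without SGC-CLK-1 replicate 2 or 3 or DMSO replicate 1 or 3 (edgeR adjusted p = 0.118, 0.0775, 0.0866 and 0.0648). That of IPO5-202 was lost without any 1 library other than DMSO replicate 2, with edgeR adjusted p between 0.0939 and 0.166. Without a filter on low counts, under which the gene sum passed, both transcript calls were lost (edgeR adjusted p = 0.110 and 0.174), and with at least 10 counts in every library neither transcript could be tested.

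IPO9, an importin of core histones and actin, was at 211, 141 and 188 CPM against 98.5, 105 and 99.2 CPM. The 3 DMSO-labelled libraries differed by less than 7 CPM, and each SGC-CLK-1-labelled library was above them. The sum gave a log2 change of 0.77 ± 0.25 (SE, edgeR adjusted p = 0.167), while its main coding transcript IPO9-201 (ENST00000361565, chr1:201829157-201884291), with 124, 46 and 62 counts against 35, 49 and 33, was called at a log2 change of 0.87 ± 0.23 (SE, edgeR adjusted p = 0.0312). This call was lost without a filter on low counts (edgeR adjusted p = 0.182), in DESeq2 (adjusted p = 0.0598) and without any 1 library other than DMSO replicate 2 (edgeR adjusted p between 0.0579 and 0.134). KPNB1, importin beta 1 and the most counted gene of the group, was at 943, 998 and 818 CPM against 761, 839 and 890 CPM. Its groups overlapped, and the log2 change was 0.07 with an approximate 95% interval from -0.28 to 0.43. TNPO3, which imports SR splicing factors, had a log2 change of 0.92 ± 0.41 (SE, edgeR adjusted p = 0.339), with 45.0, 143 and 75.1 CPM against 38.4, 42.0 and 48.3 CPM. The middle SGC-CLK-1-labelled library carried most of that difference, and the groups overlapped. Summed, the 6 importins stood at 1647 ± 76.3 against 1264 ± 48.9 CPM (SD, n = 3, exact permutation p = 0.1, or 0.183 after Benjamini-Hochberg adjustment over the roles). The sums of importin alpha, the inner ring and the central channel had the same permutation p, before and after adjustment.

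The importin alpha adaptors, which link cargo with a classical nuclear localization signal to importin beta, were split. KPNA6, the most counted, was at 681, 670 and 660 CPM against 540, 569 and 496 CPM, higher without overlap, at a log2 change of 0.25 ± 0.18 (SE, edgeR adjusted p = 0.576). KPNA4 ran the other way at 63.0, 93.7 and 75.1 CPM against 137, 115 and 115 CPM. Its log2 change was -0.75 ± 0.27 (SE, edgeR adjusted p = 0.218). KPNA2 was higher without overlap at a log2 change of 0.44, and KPNA3 overlapped at -0.22. None of the 4 was called, and 42.4% of the stretches of 31 bases in the shorter KPNA2 transcript also occurred in other genes, among them a KPNA2 pseudogene locus.

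Of the exportins, CSE1L, which returns importin alpha to the cytoplasm, was the most counted and had the smallest p. It was at 421, 628 and 651 CPM against 327, 451 and 233 CPM, and 1 DMSO-labelled library lay above the lowest SGC-CLK-1-labelled library. The log2 change was 0.67 ± 0.25 (SE, edgeR adjusted p = 0.235). XPO1, the receptor for leucine-rich export signals, was at 181, 168 and 260 CPM against 93.7, 206 and 185 CPM. Its log2 change was 0.24, with an approximate 95% interval from -0.34 to 0.82. XPO5 and XPOT, which export precursor miRNAs and tRNAs, had changes of 0.24 and -0.05. The mRNA export receptor NXF1 had 22.5, 16.5 and 32.2 CPM against 50.4, 26.7 and 42.9 CPM, a log2 change of -0.81 ± 0.46 (SE, edgeR adjusted p = 0.467) with overlap. NXT1 had 1 count in each group, and was too low to test.

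**Figure D2:**
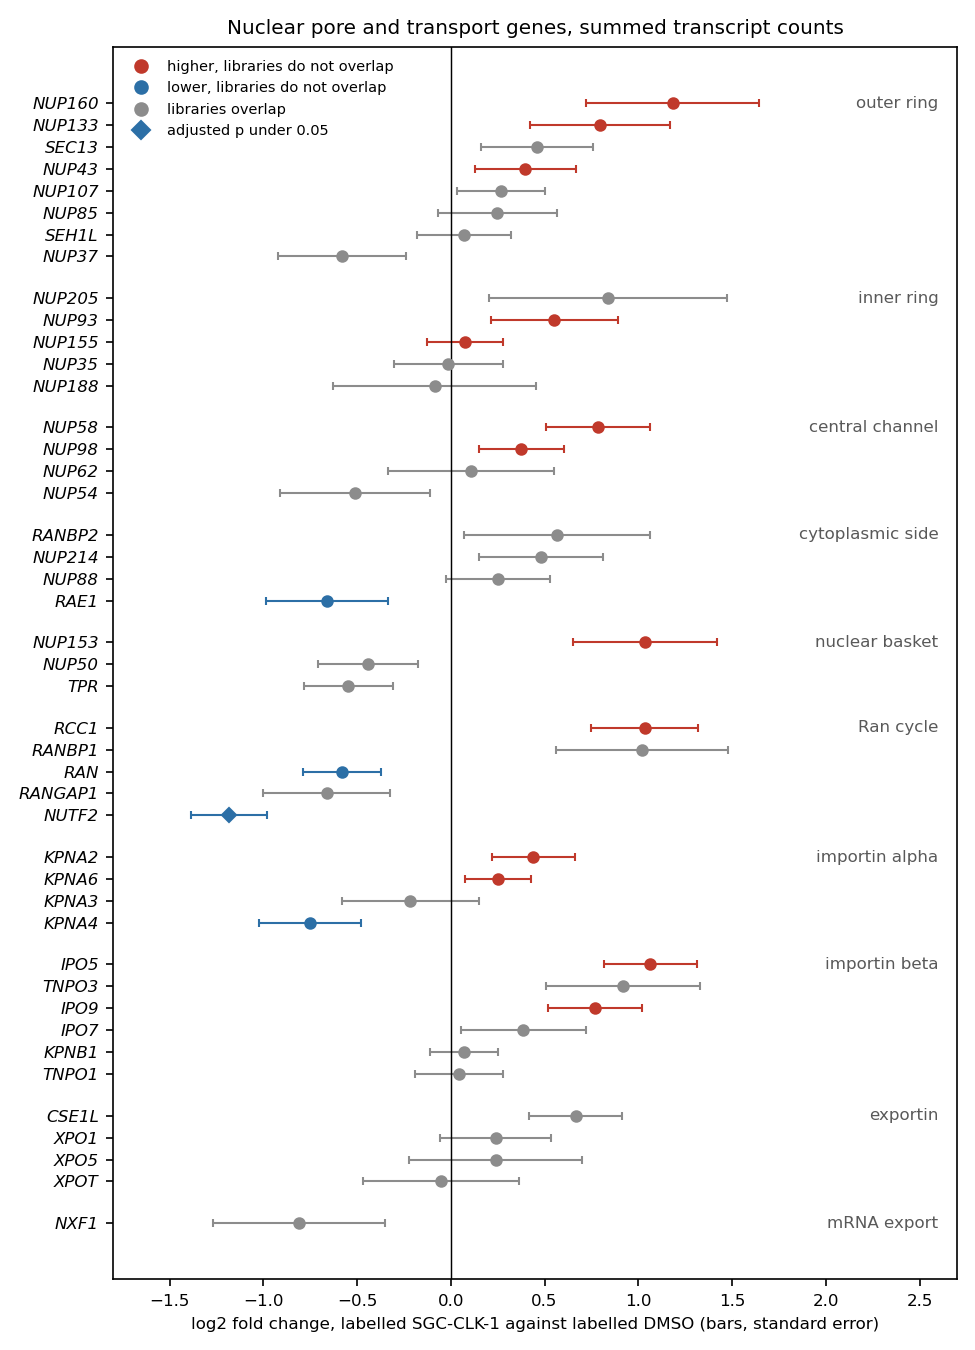
Log2 fold change of the summed counts of each of the 44 genes tested, SGC-CLK-1 against DMSO, with its standard error, ordered by role. NUTF2, at -1.18, is the gene whose adjusted p is under 0.05, and the 6 importin beta genes all lie to the right of 0.

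Among the pore subunits, the outer ring had 7 of 8 genes with a log2 change above 0 and none called. NUP160 was at 82.5, 105 and 105 CPM in the SGC-CLK-1-labelled libraries and 24.0, 78.3 and 13.4 CPM in the DMSO-labelled libraries. The groups did not overlap, but DMSO replicate 2 stood close to the libraries of the other label and far from the others of its own. The log2 change was 1.18 ± 0.46 (SE, edgeR adjusted p = 0.257), and it ran from 0.81 (edgeR adjusted p = 0.495) without DMSO replicate 3 to 2.26 (edgeR adjusted p = 0.0440) without DMSO replicate 2 as libraries were left out, the last being the one setting of these in which it was called. NUP133 was at 64.5, 52.4 and 69.7 CPM against 21.6, 42.0 and 37.5 CPM, a log2 change of 0.80 ± 0.37 (SE, edgeR adjusted p = 0.363) without overlap. NUP107 and SEH1L tied as the most counted of the ring, and both overlapped. NUP107 was at 208, 259 and 292 CPM against 173, 248 and 172 CPM. SEH1L was at 277, 193 and 223 CPM against 202, 164 and 268 CPM, with a log2 change of 0.07. The ring summed to 1030 ± 62.7 against 801 ± 47.7 CPM (SD, n = 3, exact permutation p = 0.1, or 0.183 after Benjamini-Hochberg adjustment over the roles).

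In the inner ring, NUP93 had the smallest p, at 85.5, 99.2 and 102 CPM against 33.6, 74.5 and 75.1 CPM. It was higher without overlap, at a log2 change of 0.55 ± 0.34 (SE, edgeR adjusted p = 0.506). NUP155, a linker between the scaffold and the membrane (chr5:37288137-37371106, minus strand), hardly differed as a gene. It was at 247, 245 and 257 CPM against 238, 237 and 201 CPM, with a log2 change of 0.08 (approximate 95% interval from -0.32 to 0.47). Its transcripts differed more. NUP155-201 (ENST00000231498) had 124, 69 and 78 counts against 92, 110 and 67, a log2 change of -0.06. NUP155-202 (ENST00000381843), which starts in another first exon 35 bases further on and has a coding sequence of 3996 in place of 4173 bases, had 18, 10 and 10 counts against 3, 7 and 2. The groups did not overlap, and it made up 10.9%, 11.2% and 10.4% of the NUP155 counts against 3.03%, 5.65% and 2.67%. Its log2 change was 1.56 ± 0.48 (SE, edgeR adjusted p = 0.0599), and relative to the gene it was 1.49. NUP155-202 passed the filter on low counts only through the SGC-CLK-1-labelled libraries, in which it was higher. These values are therefore not independent of that filter. The usage test of NUP155 gave an edgeR adjusted p of 1.00. Neither test was passed, and neither was passed under any alternative that gave it an adjusted p. Below the filter, NUP155-207 (ENST00000513532), which starts within the first exon of NUP155-201, had 15, 6 and 6 counts against 2, 2 and 3. It too was higher without overlap, and it was not tested. NUP155-202 and NUP155-207 end in last exons of 200 and 139 bases, where that of NUP155-201 has 3902.

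The central channel held NUP58 and NUP98. NUP58, a repeat protein of the channel, was at 145, 185 and 174 CPM against 106, 113 and 56.3 CPM. It was higher without overlap at a log2 change of 0.78 ± 0.28 (SE, edgeR adjusted p = 0.210). Its coding transcript NUP58-202 had 26, 18 and 22 counts against 11, 12 and 6 (log2 change 1.12, edgeR adjusted p = 0.0661), while its retained-intron transcript NUP58-205 had 17, 10 and 4 against 15, 20 and 8 (log2 change -0.56, edgeR adjusted p = 0.493). The first did not overlap and the second did, and the usage test of NUP58 did not pass adjustment. The log2 change of NUP58-205 ran from -0.769 to -0.271 as libraries were left out.

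NUP98 (chr11:3671083-3797792, minus strand) encodes a precursor that is cleaved into the channel protein NUP98 and the outer ring protein NUP96. As a gene it was at 208, 201 and 284 CPM against 178, 155 and 174 CPM, higher without overlap, with a log2 change of 0.38 ± 0.23 (SE, edgeR adjusted p = 0.501). Its retained-intron transcript NUP98-212 had 6, 3 and 2 counts in the SGC-CLK-1-labelled libraries and 16, 16 and 10 in the DMSO-labelled libraries. It was lower without overlap, at a log2 change of -1.99 ± 0.47 (SE, edgeR adjusted p = 0.0153), and made up 4.32%, 4.11% and 1.89% of the NUP98 counts against 21.6%, 19.8% and 15.4%. The 4 other tested transcripts, which hold 32 to 34 exons, had log2 changes from 0.53 to 0.73, none called. NUP98 was the one gene of the set called in the usage test (edgeR adjusted p = 0.00633), in which 5 of 1804 genes, 0.277%, were called. The log2 change of NUP98-212 relative to the gene was -2.28. Its counts reached 10 only in the DMSO-labelled libraries, so that it passed the filter on low counts only through the group in which it was higher. With at least 10 counts in every library NUP98-212 could not be tested, and NUP98 was not called in the usage test. The usage call was lost without SGC-CLK-1 replicate 1 or 3 or DMSO replicate 1 or 2 (edgeR adjusted p = 0.161, 0.306, 0.195 and 0.0905). For the transcript's own change, the adjusted p was 0.0526, 0.0735 and 0.0789 without SGC-CLK-1 replicate 1, 2 or 3 and 0.115 without DMSO replicate 1 in edgeR. Below the filter, the retained-intron transcript NUP98-208 had no counts in the SGC-CLK-1-labelled libraries and 3, 2 and 4 in the DMSO-labelled libraries. The short coding transcripts NUP98-204 and NUP98-205, which end upstream of the intron in question, had 10, 11 and 9 against 3, 6 and 5 counts, and 14, 9 and 8 against 3, 6 and 5 counts. Each of these 3 was without overlap and was not tested.

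**Figure D3:**
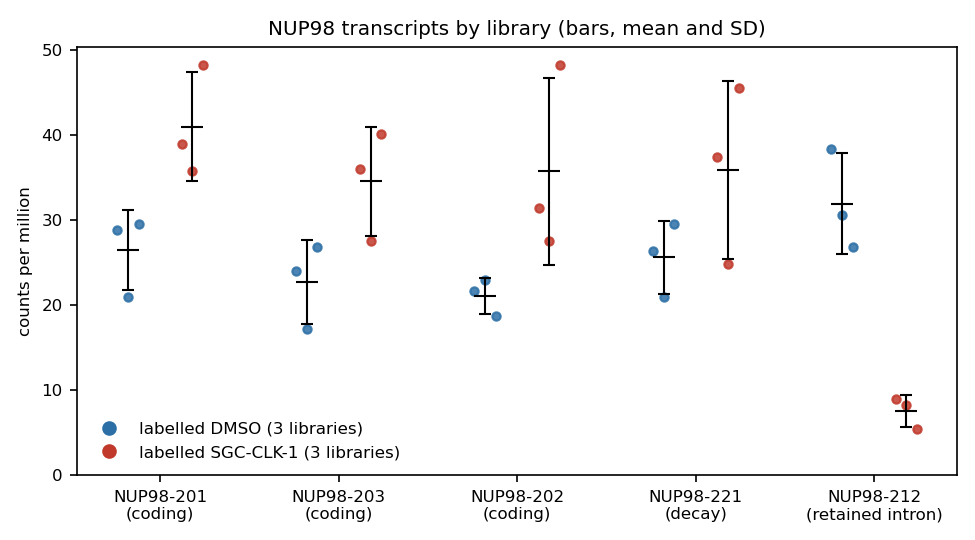
CPM of the 5 NUP98 transcripts that passed the filter, by library, with the mean and SD of each group of 3 libraries. NUP98-212 sits at 7.54 CPM on average in the SGC-CLK-1-labelled libraries and at 31.9 CPM in the DMSO-labelled libraries, while the means of the other 4 lie higher in the SGC-CLK-1-labelled libraries.

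On the cytoplasmic side, RAE1, an mRNA export factor bound to NUP98, was at 117, 113 and 45.6 CPM against 120, 168 and 131 CPM. It was lower without overlap, though its highest library and the lowest DMSO-labelled library were 3 CPM apart, and the log2 change was -0.66 ± 0.33 (SE, edgeR adjusted p = 0.391). NUP214, a repeat protein of the cytoplasmic filaments, was at 181, 248 and 134 CPM against 195, 122 and 67.0 CPM with overlap (log2 change 0.48, edgeR adjusted p = 0.559). RANBP2 is uncertain, since 32.9% of its stretches of 31 bases also occurred in other genes, most of them in RGPD3, and so is NUP88, with 39.3% shared with RABEP1. In the nuclear basket the genes were split. NUP153 was at 90.0, 82.7 and 42.9 CPM against 33.6, 42.0 and 24.1 CPM, higher without overlap (log2 change 1.04 ± 0.39 SE, edgeR adjusted p = 0.235). TPR, the main coiled-coil protein of the basket, was at 229, 320 and 370 CPM against 324, 453 and 485 CPM and overlapped (log2 change -0.55 ± 0.24 SE, edgeR adjusted p = 0.319). The transmembrane subunit NUP210 had 2 counts in each group and was not tested.

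**Figure D4:**
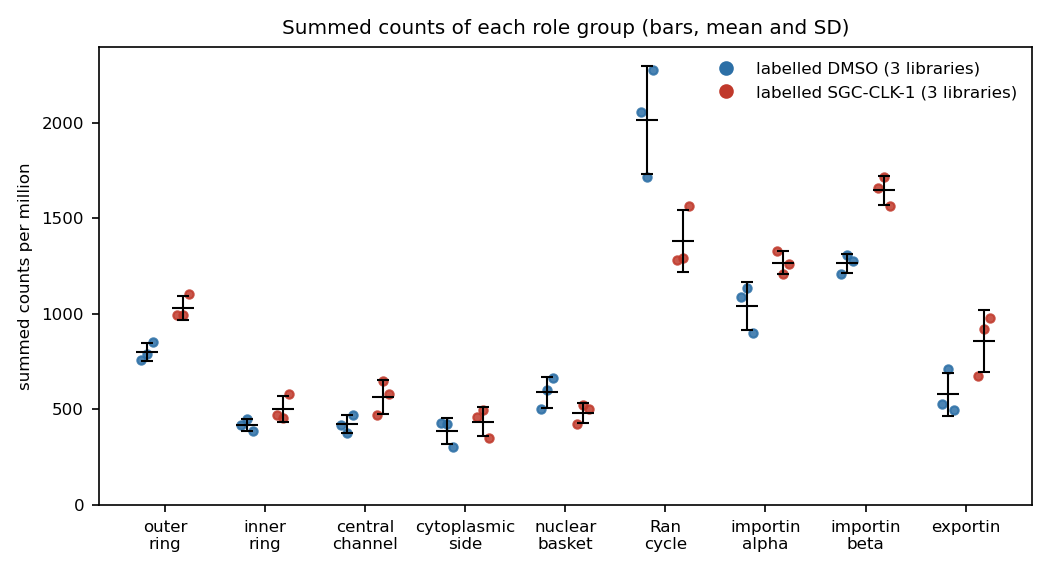
Summed CPM of the genes of each role, by library, with the mean and SD of each group of 3 libraries. The Ran cycle, whose sum includes NUTF2, lies lower in the SGC-CLK-1-labelled libraries with no overlap. The importin beta family, importin alpha, the outer ring, the inner ring and the central channel lie higher with no overlap. The cytoplasmic side, the nuclear basket and the exportins overlap.

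Counted over the whole set, 44 of 46 genes were tested and 1, NUTF2, was called, or 2.27% against 0.315% of all genes tested. The groups did not overlap in 17 of the 44 (38.6%, against 19.9% of all genes tested), 13 higher (12.2% of all genes tested were) and 4 lower (7.66% were). The edgeR p before adjustment was under 0.05 in 13 of the 44 (29.5%, against 13.8%). The log2 change was above 0 in 30 of 44, or 68.2% against 50.0% of all genes, and its median was 0.25 against 0.00. Of transcripts, 69 of 426 were tested, from 32 genes and holding 79.2% of the counts of the set, and 6 were called, 3 higher (IPO5-201, IPO5-202 and IPO9-201) and 3 lower (NUTF2-201, NUTF2-208 and NUP98-212). They come from 4 genes, and those of 1 gene are not independent. The 6 called are 8.70% of those tested, against 3.95% of 7840 transcripts in all, of which 1.85% were called higher and 2.10% lower. IPO5-201, IPO5-202 and NUP98-212 passed the filter on low counts only through the group in which they were higher. Their calls, and this share, are therefore not independent of that filter. The whole set took 7780, 8282 and 8520 CPM in the SGC-CLK-1-labelled libraries and 7470, 7535 and 7667 CPM in the DMSO-labelled libraries. The 2 ranges did not overlap, the means being 8194 ± 378 and 7557 ± 101 CPM (SD, n = 3, exact permutation p = 0.1).

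Retained-intron transcripts took a smaller share of the counts of the set in SGC-CLK-1-labelled libraries, and most of this difference rested on NUTF2. The share was 7.33%, 6.86% and 6.99% in the SGC-CLK-1-labelled libraries and 10.2%, 9.41% and 8.92% in the DMSO-labelled libraries, without overlap (means 7.06% ± 0.243 and 9.51% ± 0.643, SD, n = 3; exact permutation p = 0.1). The NUTF2 part of it is NUTF2-208, whose counts nearly equal those of the coding NUTF2-201 with which it shares its last exon, so that molecules of the coding transcript may be counted in the share. Without NUTF2 it was 5.89% ± 0.203 against 6.17% ± 0.466 and overlapped (exact permutation p = 0.5). Without NUTF2 and NUP98 it was 5.91% ± 0.205 against 5.70% ± 0.399, the other way round (exact permutation p = 0.6). Over all annotated counts the share was 9.44% ± 0.0257 against 9.34% ± 0.137 (exact permutation p = 0.4). Of 6 retained-intron transcripts of the set that were tested, those of NUTF2 and NUP98 were called lower, where 5.12% of 645 such transcripts of all genes were. The other 4 were not called, and IPO5 ran the other way, its tested retained-intron transcript having 31, 11 and 19 counts against 10, 10 and 6 (log2 change 1.12, edgeR adjusted p = 0.0768).

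**Figure D5:**
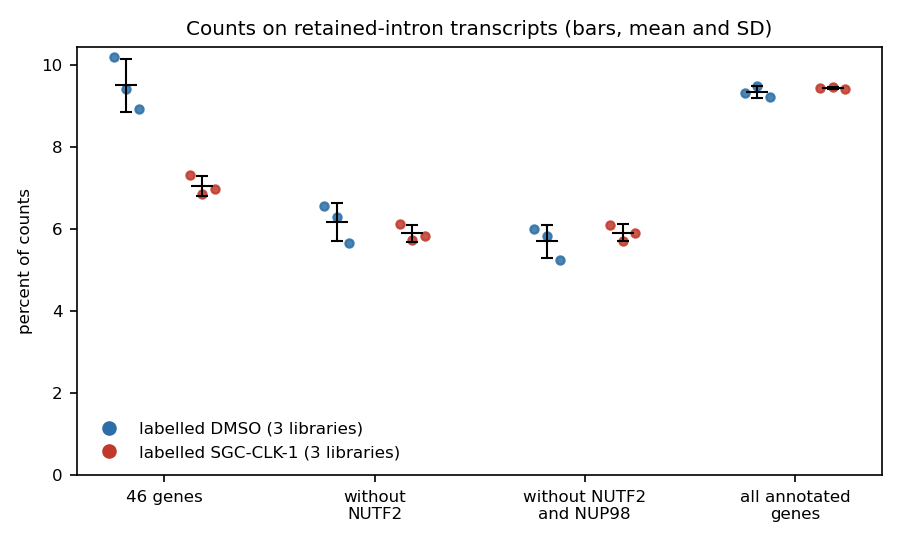
Percent of counts on transcripts annotated as retained intron, by library, with the mean and SD of each group of 3 libraries, for the 46 genes, for the set without NUTF2 and without NUTF2 and NUP98, and for all annotated genes. The groups stand apart at 7.06% and 9.51% in the full set, in which NUTF2-208 may hold molecules of coding NUTF2-201, and overlap in the other 3.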

How the data were processed

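Taken as Nanopore libraries, the files follow methods in which the authors called bases with Guppy, mapped reads to human transcripts with minimap2 (2.22 in the submitters' processing notes, with builds hg38 and mm10) keeping secondary alignments, deduplicated UMIs and deposited counts of UMIs per transcript, 1 library per file, without normalization. Which deduplication made the files is not given in the sources used here. Missing transcripts were set to 0. Identifiers without version were matched to GENCODE release 44 (86362 of 93530) and 7168 unmatched ones stayed in the totals, so that between 92.5% and 93.4% of counts had a gene. Genes were sums of transcripts by symbol, in which 1 molecule can count more than once.

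The tests were those of edgeR 4.0.16 under R 4.3.3: low counts were removed (minimum count 10, total 15), libraries scaled by TMM, and features tested by quasi-likelihood F tests, with diffSpliceDGE for usage (Benjamini-Hochberg over all features tested, threshold 0.05). Tested transcripts held 67.5% to 71.5% of a library's counts, and the total per library (362826 to 666702) limits the rest. Exact permutation tests used scipy 1.17.1. On simulated data, edgeR recovered 81.0% of 200 transcripts and 92.0% of 200 genes changed by a fold of 4, among 7206 and 5970 tested, and the usage test 83.5% of 200 genes among 1635. DESeq2 1.42.0, the study's tool, other scalings, filters and leaving out each library were alternatives.

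Pairs of same-group libraries had a chi-square of 1.23 to 2.26 per degree of freedom, more than sampling noise, and each counted as 1 replicate. Sequences came from GENCODE and RefSeq. Named were NUTF2, NUP98 and NUP155, every member called, the gene with the smallest p and the most counted gene of each role, and up to 10 with the largest change among those without overlap. The members, lists and rules were chosen with earlier results of these data known. The table of PCR cycles (4 columns) and the reports on molecular identifiers were not used.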

Additional observations from a re-analysis of the deposited data

How the results depend on the processing

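The calls on the 2 NUTF2 transcripts kept their side of the threshold under all 12 alternatives. Counts of calls moved more. Under no filter on low counts, 162 transcripts (3 of the set) and 169 genes (2) were called. With at least 10 counts in every library, 173 transcripts, 64 genes (2) and 1 usage gene (0) were called, by DESeq2 113 transcripts (the 2 of NUTF2) and 107 genes (NUTF2 and IPO5, 2 genes), and with the highest transcript per gene 147 genes (2). Leaving out 1 library gave 81 to 363 transcripts, 2 to 10 of the set, 1 to 21 genes, 0 to 2 of the set, and 1 to 5 usage genes, 0 to 1 of the set. The cause was not tested. DESeq2 gave no adjusted p for NUP98-212, IPO5-201 and IPO5-202. Correlations of deviations between libraries of the same replicate number were 0.0589, 0.0929 and -0.00184, and between other numbers they ran from -0.123 to 0.0672. With 3 libraries a group, these values cannot decide whether replicate numbers pair the libraries. With the replicate block 427 transcripts (8 of the set), 36 genes (1) and 4 usage genes (1) were called. Without it 310 transcripts, 20 genes and 5 usage genes were. Summing by gene identifier, chosen after seeing the data, gave 15 genes in place of 20.

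The retained-intron difference of -2.45 percentage points became -0.27 without NUTF2 and 0.21 without NUTF2 and NUP98 (both also chosen after seeing the data). Among gene sums that were not called, leaving out 1 library moved the log2 change by over 1.5 times for NUP93 (0.24 to 0.73), NUP214 (0.20 to 0.87), NUP107 (0.14 to 0.46), NUP98 (0.20 to 0.46), RAE1 (-0.92 to -0.37) and RAN (-0.73 to -0.36), beside NUP160. The NUP155 sum, near 0, also moved by over 1.5 times (0.0185 to 0.107). Sign changes otherwise befell values near 0. The log2 change of NUP107 ENST00000378905 was 0.0305 by library size only and 0.00721 with the replicate block, and ran from -0.117 to 0.209 as libraries were left out. KPNB1 ENST00000290158 was at -0.000245 without a filter and ran from -0.0210 to 0.151, and the KPNB1 sum from -0.0150 to 0.144. NUP155 was at -0.0868 with the highest transcript, and ENST00000231498 ran from -0.159 to 0.00399. KPNA6 ENST00000471599 ran from -0.0600 to 0.312, NUTF2-205 from -0.545 to 0.255 and NUTF2-206 from -0.323 to 0.337. The transmembrane difference, on 2 counts a group, ran from -1.60 to 1.84 CPM. At this depth most transcripts of the set, all but 69 of 426, were too low to test.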

Other observations

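Of 37 other genes of the pore, of transport and of mRNA export, 24 were tested, 12 with a log2 change above 0 and 12 below it. None was called by edgeR, in which 6 of the 24 had an unadjusted p under 0.05 (13.8% of all genes tested did), and DESeq2 called 0 of the 22 to which it gave an adjusted p. Of the other nucleoporins, 6 of 7 were above 0, where 50.0% of all genes tested were, and the direction of the group was not tested. AHCTF1 (ELYS), which seeds pores on chromatin, was counted 98, 67 and 70 times against 60, 46 and 31 (log2 change 0.64 ± 0.27 SE, edgeR adjusted p = 0.297). GLE1, an mRNA export factor at the cytoplasmic face, had 30, 10 and 10 counts against 6, 5 and 6 (log2 change 1.28 ± 0.52 SE, edgeR adjusted p = 0.290). Neither overlapped between the groups once scaled to CPM.

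Of the other mRNA export genes, 3 were above 0 and 7 below, and this too was not tested. DDX39A, an RNA helicase of that pathway, had 192, 107 and 125 counts against 176, 226 and 207, at 306 ± 25.4 against 470 ± 74.0 CPM (SD, n = 3), a log2 change of -0.70 ± 0.21 (SE; edgeR adjusted p = 0.133). THOC2, the scaffold of the THO complex, had 172, 107 and 117 counts against 138, 237 and 272 and a log2 change of -0.89 ± 0.27 (SE; edgeR adjusted p = 0.142). ALYREF, the adaptor that loads NXF1 on mRNA, had 48, 23 and 34 counts against 18, 17 and 16 and a log2 change of 0.86 ± 0.34 (SE; edgeR adjusted p = 0.257). None of these 3 overlapped between the groups in CPM, and none was called.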
